A study of Homo sapiens with 10 samples.

Results

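Interferon-stimulated and innate sensing genes were followed in C33A cells that expressed wild-type or ATPase-mutated BRG1 or BRM, the catalytic subunits of the SWI/SNF chromatin remodelling complex. The set holds 49 genes of the 63152 gene identifiers in each expression table, matched by symbol to their Ensembl identifiers, and all 49 were found. The genes were picked by name with earlier results of these same expression and splicing tables known, so their levels and differences are a description and carry no test. RNA-seq of polyadenylated RNA had been made from 10 libraries, with 2 replicates in each of 5 groups, 48 h after transfection. The control group received the empty vector pOPRSVI, BRG1-wt received pBJ5-BRG1, BRG1-mut received pBJ5-BRG1-K798R, BRM-wt received pCG-hBrm and BRM-mut received pCG-hBrm-K798R. K798R is the amino acid change in the ATPase domain, as the labels give it. Wild-type and mutant forms of an ATPase were in vectors of the same name, whereas control, BRG1 and BRM were each in a different vector, so vector and ATPase cannot be told apart between BRG1 and BRM or against control. C33A is a human cervical carcinoma cell line described as lacking both ATPases, and all groups share this background.

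Cells detect viral nucleic acids through sensors such as RIG-I, MDA5 and TLR3, which signal through adaptors to transcription factors of the IRF family. These switch on interferons, and interferons act through their receptors and JAK kinases on transcription factors that include STAT2 and IRF9. These bind the interferon-stimulated response element (ISRE), a short sequence in the promoters of interferon-stimulated genes. The products of these genes block viral entry, degrade or sequester viral RNA, attach the ubiquitin-like protein ISG15 to other proteins, and raise antigen presentation. SWI/SNF ATPases are known to take part in the induction of several of these genes.

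The expression tables give 1 level per gene, the base mean, which is the authors' mean of normalised read counts over the 2 control and 2 ATPase libraries of a table. Counts per library were not used here, and the spread between replicates and the depth behind a level are unknown. No test, standard deviation or interval can therefore be given for expression, and a difference between tables may come from 1 of the 2 ATPase libraries. The base means of a table add up to between 36.5e+06 and 38.7e+06. All tables were taken to share the same 2 control libraries, as the labels and the study's methods describe, and were put on 1 scale with factors of 0.971 to 1.028. On that scale a table differs from another by its ATPase libraries alone. Because control makes up part of both base means, their ratio lies closer to 1 than the ratio of the ATPase libraries themselves. How much closer depends on the unknown control level of each gene. The order of genes by ratio of base means need therefore not be their order in the ATPase libraries.

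The transfected genes were checked first. SMARCA4, which encodes BRG1, had rescaled base means of 25653 and 30323 in the BRG1-wt and BRG1-mut tables, and of 3979 and 2992 in the BRM-wt and BRM-mut tables. SMARCA2, which encodes BRM, had 12.5 and 9.49 in the BRG1-wt and BRG1-mut tables, and 61427 and 73523 in the BRM-wt and BRM-mut tables. Each ATPase was thus highest in the tables labelled with it, and transcripts of SMARCA4 were also present where BRG1 had not been transfected. Among markers of the labelled epithelial cell type, KRT8 and KRT18 were at 88.4 to 692, EPCAM at 23.3 to 30.7, CDH1 at 3.10 to 6.24 and KRT19 at 0 to 1.23. KRT8 and KRT18 were higher in the tables of the wild-type ATPases (KRT8, 453 and 382 against 136 and 88.4). Of the markers of other cell types, PTPRC (leukocytes, 1555 to 1801) and COL3A1 (fibroblasts, 3641 to 4188) were high in every table, while COL1A1 was at 18.6 to 36.3, CD14, VWF and DCN were at 12.0 or less and CD3E was listed at 0. PTPRC and COL3A1 differed little between tables, and their part in the results below was not tested.

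Promoter sequences are shown because the ISRE is the element through which these genes are known to be induced. RefSeq windows of GRCh38.p14, from 250 bases before to 50 bases after a start site, were matched for 39 of the 49 genes and gave 52 windows, since some genes have several start sites. A simple form of the ISRE, the letters GAAA, any 2 bases and again GAAA, was searched on both strands and was in a window of 24 of the 39 genes (61.5%), against 4.38% of all 27305 genes. By window the shares were 53.8% of 52 and 3.57% of 35116. A form of the GAS element, through which interferon gamma acts, the letters TTC, any 3 bases and GAA, was in a window of 13 of the 39 genes (33.3%), against 9.38% of all genes. Matches can overlap each other. The following 30-base stretches, 5′ to 3′ on the strand of the gene, show 1 marked match each from 8 genes. These have the highest ratios of the BRG1-wt to the BRG1-mut base mean among the genes with a match. MX2, XAF1, OAS1 and OAS2, with ratios of 30.9, 29.3, 25.5 and 23.3, are not among them, since they had no window or no match in it. Capitals mark the match, which reads TTTC, any 2 bases and TTTC where it is on the other strand. The distance to the start site counts from the first base in capitals. The BST2 stretch also holds a further match, which overlaps the marked one and is not fully in capitals.
IFITM1, chr11:313990-314019, plus strand, 40 bases before the start: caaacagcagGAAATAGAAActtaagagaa
BST2, chr19:17405735-17405764, minus strand, 124 bases before the start: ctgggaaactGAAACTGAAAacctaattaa
MX1, chr21:41431844-41431873, plus strand, 196 bases before the start: ggtcactctgTTTCTCTTTCcgtgaataaa
IFI44L, chr1:78620365-78620394, plus strand, 73 bases before the start: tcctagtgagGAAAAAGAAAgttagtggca
IFITM3, chr11:320876-320905, minus strand, 35 bases before the start: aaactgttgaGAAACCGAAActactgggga
IFI27, chr14:94110631-94110660, plus strand, 95 bases before the start: cggtttcctgGAAAATGAAAcctatctcat
IFI6, chr1:27672266-27672295, minus strand, 93 bases before the start: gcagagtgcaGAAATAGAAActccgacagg
PARP9, chr3:122564322-122564351, minus strand, 41 bases before the start: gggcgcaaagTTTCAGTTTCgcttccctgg

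The 49 matches in the members' windows fall on 45 distinct sites, because windows of 1 gene can overlap. Of the 49 matches, 48 began before the start site and within 200 bases of it, and the remaining match, in a window of MX1, began after it. A single site, chr3:122564332-122564341, lay in the windows of both PARP9 and DTX3L, genes that are transcribed in opposite directions from neighbouring starts. The letters are a description of these windows, and binding was not measured. The 250 bases before the start of IFITM1 and BST2, the members with the largest wild-type to mutant ratios, are shown whole, with the bases of every ISRE match in capitals. In IFITM1 the last match runs past the start, and in BST2 the matches overlap by 4 bases.
IFITM1, chr11:313790-314039, plus strand: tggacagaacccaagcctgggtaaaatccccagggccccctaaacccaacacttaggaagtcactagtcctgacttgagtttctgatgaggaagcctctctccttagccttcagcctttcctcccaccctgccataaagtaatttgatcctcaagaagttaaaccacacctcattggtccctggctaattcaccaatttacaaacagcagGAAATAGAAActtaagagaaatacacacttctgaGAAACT
BST2, chr19:17405631-17405880, minus strand: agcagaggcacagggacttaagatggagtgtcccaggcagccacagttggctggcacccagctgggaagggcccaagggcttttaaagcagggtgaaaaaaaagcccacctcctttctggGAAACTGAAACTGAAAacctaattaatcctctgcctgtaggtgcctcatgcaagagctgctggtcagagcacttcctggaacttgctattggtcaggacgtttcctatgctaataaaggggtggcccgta

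**Figure D1:**
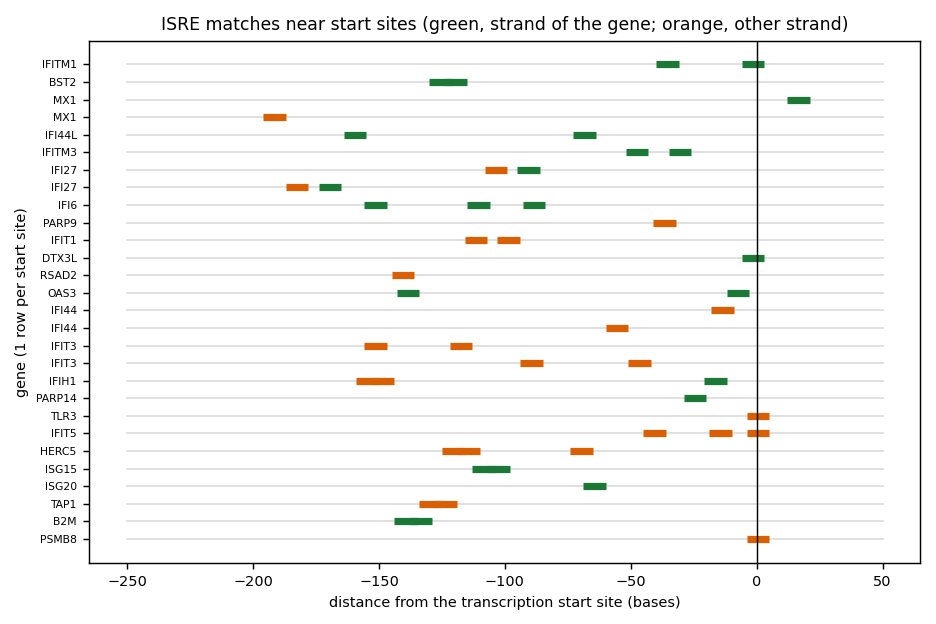
Position of each ISRE match in the windows that hold one, with 1 row per start site; the horizontal axis is the distance from the start site in bases, from 250 before to 50 after, and genes are ordered by the ratio of the BRG1-wt to the BRG1-mut base mean, highest at the top. Green bars are matches on the strand of the gene and orange bars matches on the other strand; 48 of the 49 matches begin before the start site.

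Most of the genes were at a higher level in the tables of the wild-type ATPases than in those of the mutants, for BRG1 and for BRM alike. Genes with a mean rescaled base mean of at least 10 were compared, which 45 of the 49 members and 16459 genes in all passed. A difference was counted where the ratio of rescaled base means was at least 1.5 or at most 0.667. From BRG1-wt to BRG1-mut, 38 of 45 members were at least 1.5-fold higher and 0 were lower, against 2.18% of all genes higher and 2.87% lower. From BRM-wt to BRM-mut, 38 of 45 were higher and 0 lower, against 4.42% and 0.225% of all genes. The same 38 members passed in both pairs. In bulk RNA, a higher level in each cell and a larger share of cells with the transcript cannot be told apart. The median ratio of the 45 was 2.96 for BRG1 and 3.03 for BRM, where the median over all genes was 0.997 and 1.00. Since the members were chosen from these tables, the counts describe the choice as much as the cells. Ratios between tables also varied with the GC content of the transcripts. After the median of genes of like exonic GC content was subtracted, 38 and 38 members stayed higher, while the shares over all genes became 2.45% higher and 0.332% lower for BRG1, and 2.45% and 0.263% for BRM.

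**Figure D2:**
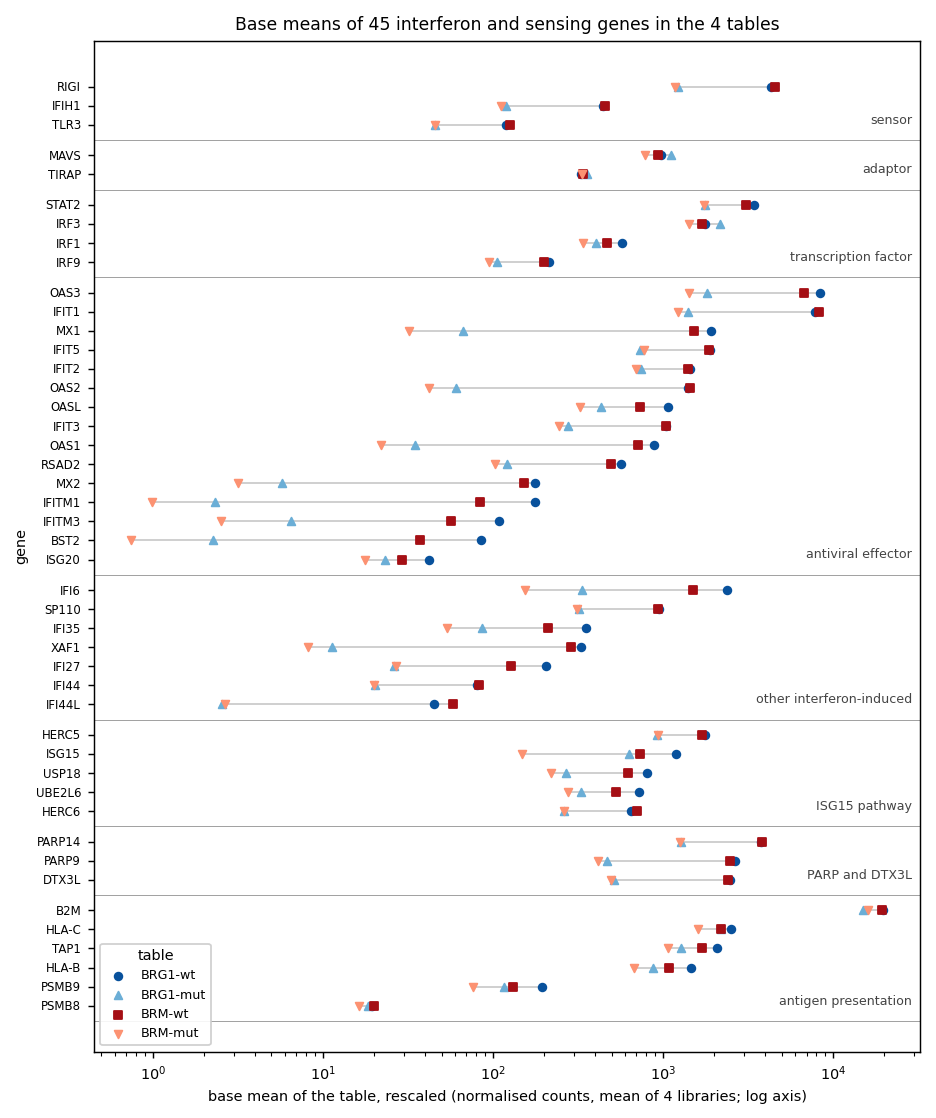
Rescaled base mean (normalised counts, mean of 2 control and 2 ATPase libraries, log axis) of the 45 genes that passed the filter, in the 4 tables, grouped by role. For 38 of the 45 genes the dark symbols of the wild-type tables stand at least 1.5-fold to the right of the light symbols of their mutant tables; a value under 0.75 (BST2 in BRM-mut) is drawn at 0.75.

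The sensors of viral RNA were all higher with the wild-type ATPases. In what follows, the 4 values of a gene are its rescaled base means in the tables of the wild-type and mutant BRG1 and then of the wild-type and mutant BRM, in this order. RIGI, the cytosolic helicase RIG-I (chr9:32455300-32526206 in GRCh37), was at 4346, 1233, 4571 and 1172. IFIH1, which encodes the related helicase MDA5, was at 445, 119.9, 455 and 112. TLR3, the endosomal receptor for double-stranded RNA, was at 120.2, 45.5, 126 and 45.5. For these 3 genes both wild-type tables lay within 5% of each other (BRG1-wt to BRM-wt ratios of 0.951, 0.977 and 0.953), and the wild-type to mutant ratios were 2.64 to 3.71 for BRG1 and 2.78 to 4.06 for BRM. The DNA sensors were near the limit of the tables. CGAS, which makes the messenger cGAMP from cytosolic DNA, was at 6.98, 7.11, 5.92 and 7.66, and IFI16, another DNA-binding sensor, was at 10.9, 1.26, 10.9 and 1.19. Both are below the filter, and no ratio is given for them.

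Adaptors did not share this pattern. MAVS, the mitochondrial adaptor of RIG-I and MDA5, was at 973, 1120.2, 933 and 789.7, and TIRAP, an adaptor of Toll-like receptors (chr11:126152392-126168740 in GRCh37), at 329, 357, 338 and 336. Neither differed by 1.5-fold between any of the 4 pairs of tables. The transcription factors were divided. STAT2 (3425, 1779, 3084 and 1739) and IRF9 (215, 106, 199.8 and 94.7), which take part in binding the ISRE, were 1.77 to 2.11-fold higher at the wild-type ATPases. IRF1, itself interferon-inducible, was at 576, 406, 469 and 337, with ratios of 1.42 and 1.39. IRF3, which is activated downstream of MAVS, was at 1761, 2179, 1693 and 1420.3, so that its highest level was in the BRG1-mut table. With the median of genes of like GC content subtracted, its ratio was 0.948 from BRG1-wt to BRG1-mut and 1.07 from BRG1-mut to BRM-mut. IRF7, the other main inducer of type I interferons, was listed at 0 in every table. Whether this 0 depends on how overlapping or duplicate gene models were counted was not tested, so it does not show absence.

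All 15 antiviral effectors that passed the filter were higher with the wild-type form of both ATPases, with median ratios of 5.62 for BRG1 and 6.68 for BRM. IFITM1, a membrane protein that blocks the entry of enveloped viruses (chr11:310041-315272 in GRCh37), was at 177, 2.32, 84.4 and 0.988. It had the highest ratio of all genes in both pairs, 76.5 for BRG1 and 85.4 for BRM, with base means under 3 in both mutant tables. BST2, or tetherin, which holds budding virions at the cell surface (chr19:17513748-17516439 in GRCh37), was at 85.5, 2.28, 37.4 and 0.243. Its level was 37.5-fold higher in BRG1-wt than BRG1-mut. In BRM-wt it was at least 49.9-fold higher than in BRM-mut, set against a floor of 3 normalised counts over the 4 libraries of a table, which is a base mean of 0.75. IFITM3, a paralog of IFITM1 in the same gene cluster, was at 109, 6.47, 56.8 and 2.53. IFITM2, the third member of this cluster, was below the filter at 14.9, 2.52, 11.5 and 1.73. Reads shared by these near-identical genes could have been split or dropped in counting, so their separate levels are uncertain.

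The dynamin-like GTPases followed. MX1, which traps viral nucleocapsids (chr21:42791947-42841998 in GRCh37), was at 1931, 67.1, 1535 and 32.3, and MX2 at 178, 5.76, 153 and 3.19. Their ratios were 28.8 and 30.9 for BRG1, and 47.6 and 48.1 for BRM. The ratios of MX2 rest on rescaled base means of 5.76 and 3.19 in the mutant tables. With a pseudocount of 10, they were 11.9 and 12.4, against 25.2 and 36.5 for MX1.

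Among the 2′-5′-oligoadenylate synthetases, which activate RNase L to degrade RNA, the ratio of base means varied widely within a gene cluster on chromosome 12. OAS1 was at 891, 35.0, 712 and 21.9, and OAS2 at 1406, 60.4, 1446 and 42.1. OAS3, at a level several times higher, was at 8370.2, 1810.0, 6754 and 1418. The ratios for BRG1 were 25.5, 23.3 and 4.62, and for BRM 32.6, 34.3 and 4.76, for OAS1, OAS2 and OAS3. OASL, a related protein that lacks synthetase activity and is encoded elsewhere on chromosome 12, was at 1069, 432, 738 and 327, with ratios of 2.48 and 2.26. OAS1 and OAS2 thus stood apart from OAS3 and OASL in the ratio of base means. The control level can be at most 43.7 for OAS1 and 84.3 for OAS2, but up to 2836 for OAS3 and 655 for OASL. Whether the ATPase libraries themselves differ in this way between the genes cannot be told.

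The IFIT genes, whose products bind viral RNA and inhibit its translation, form a cluster on chromosome 10. IFIT1 (chr10:91152303-91166244 in GRCh37) was at 7891, 1404, 8239.6 and 1234, with ratios of 5.62 and 6.68. IFIT3 was at 1044, 277, 1043 and 246, IFIT5 at 1885, 738, 1878 and 776, and IFIT2 at 1439, 743, 1411 and 691. Their ratios were 3.78, 2.55 and 1.94 for BRG1 and 4.24, 2.42 and 2.04 for BRM. The order of the 4 genes by ratio was the same for both ATPases, and in each gene the BRG1-wt and BRM-wt tables differed by less than 5% (ratios of 0.958, 1.00, 1.00 and 1.02). RSAD2, or viperin, which makes a chain-terminating nucleotide, was at 568, 122, 494 and 103. ISG20, an exonuclease, had the smallest ratios among the effectors, 1.80 and 1.64, with levels of 42.1, 23.4, 29.2 and 17.8.

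Other interferon-induced genes were higher in both pairs without exception, 7 of 7. XAF1, a pro-apoptotic protein, was at 332, 11.4, 288 and 8.24, and IFI44L at 45.3, 2.55, 58.0 and 2.66. IFI44, which neighbours IFI44L on chromosome 1, was at 80.6, 20.2, 82.8 and 20, with smaller ratios of 3.98 and 4.15 against 17.7 and 21.8 for IFI44L. IFI6, a mitochondrial and endoplasmic reticulum protein that inhibits apoptosis (chr1:27992575-27998723 in GRCh37), was at 2385, 335, 1504 and 154. IFI27 was at 206, 26.1, 128 and 27.0, and IFI35 at 353, 85.9, 210.0 and 53.8. SP110, a nuclear body protein, was at 951, 321, 942 and 314, the smallest ratios of the 7 at 2.96 and 3.0.

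All 5 members grouped under the attachment and removal of ISG15 were higher in both pairs, by smaller ratios. ISG15 itself (chr1:936518-949920 in GRCh37) was at 1187, 629, 735 and 148, and was the gene of this group whose ratios differed most between the ATPases, 1.89 for BRG1 and 4.97 for BRM. UBE2L6, the conjugating enzyme, was at 725, 330.2, 533 and 278. HERC5, the main ligase, was at 1768, 927, 1702 and 942, and its paralog HERC6 at 647, 261, 704 and 261. USP18, the protease that removes ISG15 and restrains interferon receptor signalling, was at 805, 269, 626 and 219. For the enzymes of conjugation and removal, ratios lay between 1.81 and 3.0.

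PARP9, PARP14 and DTX3L, whose products act together in ADP-ribosylation and ubiquitination, are neighbours on chromosome 3. PARP9 (chr3:122246771-122283424 in GRCh37) was at 2666, 469.6, 2487 and 416, DTX3L at 2479, 519, 2422 and 495, and PARP14 at 3781, 1285, 3821 and 1259. PARP9 and DTX3L, whose windows share the ISRE letters shown above, had close levels and close ratios, 5.68 and 4.78 for BRG1 and 5.98 and 4.90 for BRM. They overlap by 240 bp at their starts on opposite strands. PARP14 had ratios of 2.94 and 3.03.

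Of the antigen presentation genes, 3 of 6 were higher in both pairs, and the median ratio of the 6 was 1.47 in each. HLA-B, a heavy chain of MHC class I, was at 1456, 877, 1088 and 677. TAP1, a subunit of the peptide transporter, was at 2076, 1275, 1701 and 1079, and PSMB9, a subunit of the immunoproteasome, at 194, 117, 132 and 76.3. Ratios of these 3 genes were 1.58 to 1.73. B2M, the light chain of MHC class I (19654, 15041, 19467 and 16002), HLA-C (2511, 2198, 2187 and 1614) and PSMB8 (19.6, 18.5, 20.1 and 16.4) did not pass 1.5-fold in any pair. TAP1 lies within the span of PSMB9 on the other strand, PSMB8 and PSMB9 overlap by 544 bp, and HLA genes share much sequence, so the division of reads among them is uncertain. Per kilobase of exon, B2M had the highest mean level of the set (mean rescaled base mean of 5620.3 per kb), followed by IFI6 (1169), IFIT1 (1017), HLA-C (849) and ISG15 (778). This order is that of the mean over tables. B2M was first in each table, but in the BRG1-mut table HLA-C (877) and ISG15 (725) lay above IFI6 (358) and IFIT1 (304).

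The size of the differences set some members far from the bulk of genes. In both wild-type to mutant pairs, 9 members passed 10-fold, namely IFITM1, BST2, MX2, XAF1, MX1, OAS1, OAS2, IFI44L and IFITM3. Over all genes tested, 18 passed 10-fold in both pairs. Such ratios depend on low levels in the mutant tables, and with a pseudocount of 10 that of IFITM1 was 15.2 for BRG1 and 8.59 for BRM, and that of BST2 7.78 and 4.63. Among the 100 genes with the highest ratios, 24 were members for BRG1 and 22 for BRM. At the other end, 6 members (MAVS, TIRAP, IRF1, B2M, HLA-C and PSMB8) stayed within 1.5-fold in all 4 pairs of tables. Members with ISRE letters in a window had a median ratio of 4.30 for BRG1 and 4.76 for BRM (24 genes), and those with a window but without the letters had 2.12 and 2.01 (14 genes). The ranges overlapped widely, from 1.06 to 76.5 with the letters and from 0.868 to 29.3 without them for BRG1.

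**Figure D3:**
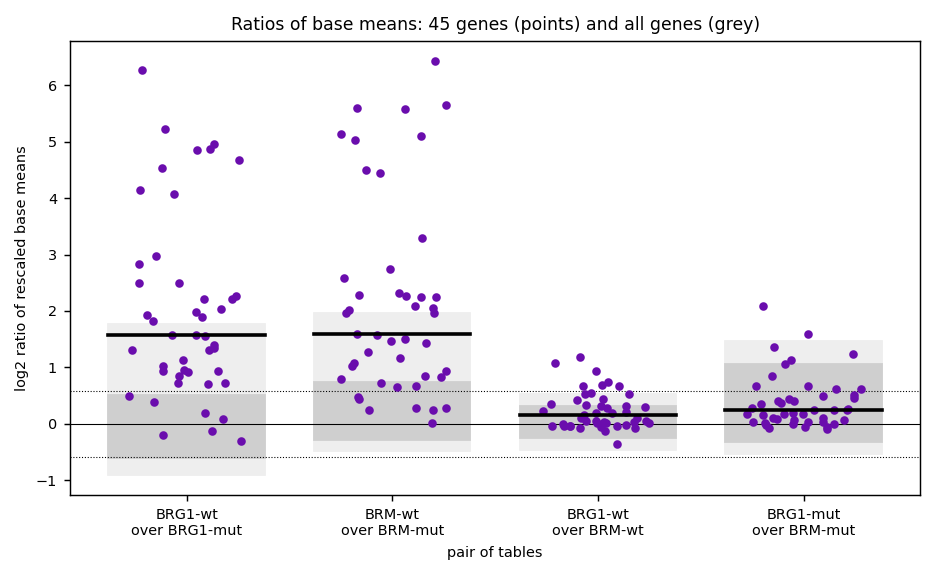
Log2 ratio of rescaled base means for the 45 genes (points) in the 4 pairs of tables; black bars are medians of the 45, dark and light grey boxes hold the central 95% and 99% of all 16459 genes tested, and dotted lines mark 1.5-fold. Most points of the 2 left pairs, wild-type over mutant, lie above the dotted line, whereas most points of the 2 right pairs lie between the dotted lines.

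Fewer members passed 1.5-fold between the tables of the wild-type ATPases, and those that did were higher with BRG1. From BRG1-wt to BRM-wt, 7 of 45 members were at least 1.5-fold higher and 0 lower, against 0.334% of all genes higher and 0.213% lower. These were BST2 (2.28), IFITM1 (2.10), IFITM3 (1.92), IFI35 (1.68), IFI27 (1.61), ISG15 (1.61) and IFI6 (1.59). The shared control level is unknown, so the ratio of the BRG1-wt to BRM-wt libraries themselves has a range over all possible control levels. It was between 2.10 and 2.11 for IFITM1, 1.92 and 1.96 for IFITM3, 1.61 and 1.77 for ISG15, and 1.68 and 1.91 for IFI35. These ranges hold no spread between replicates or from counts. For some members that were not counted the range also reached past 1.5, as for ISG20 (1.44 to 2.12), PSMB9 (1.46 to 2.10) and HLA-B (1.34 to 1.90). The count of 7 therefore holds for base means, and not for the libraries themselves. Within 1.1-fold between these tables were 21 of the 45 (46.7%), a smaller share than the 82% of all genes, among them the sensors, the 4 IFIT genes, OAS2, SP110 and the PARP9, PARP14 and DTX3L group. IFI44L was the member with the lowest ratio, 0.780, with a higher level in BRM-wt. The 7 genes higher with BRG1 had an exonic GC content of 53.7% to 63.4% (median 57.5%), against 34.8% to 60.9% (median 46.3%) for the other 38. With the GC trend over all genes subtracted, 7 members still passed 1.5-fold, against 0.313% of genes higher and 0.219% lower. Whether the vectors contributed cannot be told apart from the ATPase.

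**Figure D4:**
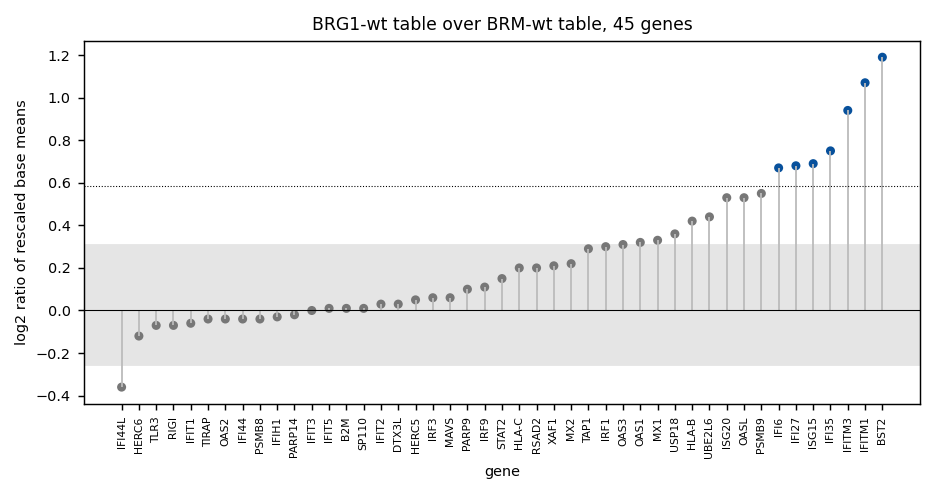
Log2 ratio of the BRG1-wt to the BRM-wt rescaled base mean for each of the 45 genes, in rising order; the grey band holds the central 95% of all genes and the dotted line marks 1.5-fold. The 7 blue points pass the line, from IFI6 (ratio 1.59) to BST2 (2.28), and IFI44L (0.780) is the point below the band.

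Between the mutants, 1.5-fold differences were common over all genes. From BRG1-mut to BRM-mut, 11 of 45 members were at least 1.5-fold higher and 0 lower, against 10.9% of all genes higher and 0.328% lower. These were ISG15 (4.25), BST2 (at least 3.04), IFITM3 (2.56), IFITM1 (2.35), IFI6 (2.18), MX1 (2.08), MX2 (1.80), OAS1 (1.60), IFI35 (1.60), PSMB9 (1.54) and IRF3 (1.53). With the GC trend subtracted, IFI35 and IRF3 no longer passed, which left 9 members against 1.20% of genes higher and 0.770% lower, and the ratio of ISG15 was 2.49. IFITM1 and BST2 had base means under 3 in both mutant tables, so these ratios rest on few counts. With a pseudocount of 10, 5 of the 45 members passed, and IFITM1, IFITM3, MX2, OAS1, BST2 and PSMB9 no longer did, against 9.14% of all genes higher.

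The base means also set a lower limit on the level of an ATPase group relative to control. A control level cannot exceed 2 times the smallest rescaled base mean of a gene, so the group to control ratio is at least the base mean divided by the smallest base mean, minus 1. By this arithmetic, which rests on the common scale and holds for the mean of 2 libraries, 35 of the 45 members were set above control in BRG1-wt, against 1.47% of all genes, and 31 in BRM-wt, against 1.5%. In BRG1-wt the limit was at least 178-fold for IFITM1, 113-fold for BST2, 58.8-fold for MX1, 39.8-fold for OAS1 and 14.5-fold for IFI6. In BRM-wt it was 84.4-fold, 48.9-fold, 46.6-fold, 31.6-fold and 8.79-fold for the same genes. The limits of IFITM1 and BST2 divide by a smallest base mean of 0.988 and by the floor of 0.75. They therefore rest on few counts, and their size is uncertain. In BRG1-mut, 6 members were set above control by their limit, against 3.14% of all genes. They were ISG15 (at least 3.25-fold), BST2 (2.04-fold), IFITM3 (1.56-fold), IFITM1 (1.35-fold), IFI6 (1.18-fold) and MX1 (1.08-fold). These limits come from the BRG1-mut to BRM-mut ratio, which must be above 2 for a limit above 1. With the GC trend subtracted, that ratio was 1.76 for IFI6, 1.82 for IFITM1 and 1.99 for IFITM3. It was 2.49 for ISG15, 2.36 for BST2 and 2.04 for MX1. With a pseudocount of 10, the ratios of IFITM1, IFITM3 and BST2 were below 1.5, so their limits rest on few counts. A limit below 1 leaves the direction unknown, and BRM-mut, which held the smallest base mean of most members, was set above control for none, against 0.0243% of all genes.

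Other genes of the pathway were taken from a list of 51, of which 40 passed the filter. From BRG1-wt to BRG1-mut 14 were higher and 1 was lower, and from BRM-wt to BRM-mut 17 were higher and 0 lower. From BRG1-wt to BRM-wt 3 were higher, and from BRG1-mut to BRM-mut 8, with none lower in either. Over all genes, 2.18%, 4.42%, 0.334% and 10.9% were higher in these pairs, in the same order, and 2.87%, 0.225%, 0.213% and 0.328% lower. With the GC trend subtracted the counts of higher genes were 15, 15, 3 and 2 in these pairs, in the order given, and 0 were lower. The shares of all genes that were higher were then 2.45%, 2.45%, 0.313% and 1.20%. None of the 6 interferon receptors and JAK kinases passed in a wild-type to mutant pair (ratios of 0.718 to 1.09 for BRG1 and 0.938 to 1.25 for BRM). Of 13 further interferon-induced genes, 10 were higher in both pairs. The highest ratios were those of SP100, a nuclear body protein, at 276, 6.32, 289.9 and 3.93 and TRIM22, an antiviral ubiquitin ligase, at 103, 5.26, 118 and 3.93. The rest did not pass in either pair, with ratios for BRG1 and BRM of 1.43 and 1.43 for SAMHD1, 1.27 and 1.25 for ADAR, and 0.816 and 1.31 for LY6E. NLRC5, a transactivator of MHC class I genes, was at 232, 58.3, 138 and 36.9, and TICAM1, the adaptor of TLR3, was the gene that was lower in BRG1-wt than BRG1-mut (123, 215, 135 and 89.6), with a ratio of 0.571 that did not pass at 0.742 with the GC trend subtracted. IFNB1, which encodes interferon beta, was below the filter, at 8.86, 0.969, 7.08 and 0.936, so that its transcripts were few in all tables and fewest in those of the mutants.

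Alternative splicing was listed for 3 of the 49 genes. All 3 were among the 45 that passed the filter (6.67%), where 13.8% of all genes that passed and have an annotation had a listed event. The splicing tables give the PSI, a fraction, for each ATPase library and the control library with the same replicate number. It is the share with the exon included among the transcript forms compared in 1 event, not among all transcripts of the gene. Only events with a Bayes factor above 10 in the authors' comparison are listed. An event that is missing from a table was therefore not shown to be unchanged, and the reads behind each PSI are unknown. The 8 tables list 396 to 977 events each. Over all genes, events listed in both replicates went the same way in 134 of 145 cases for BRG1-mut, 30 of 57 for BRG1-wt, 27 of 48 for BRM-mut and 13 of 293 for BRM-wt. The BRM-wt libraries were thus opposite to each other in 280 of 293 shared events, and each BRM-wt value below stands for 1 library. In both BRM-wt tables the control PSI equalled that of the other tables of the same replicate number, in 495 of 495 and 299 of 299 shared events (within 0.005), so the control and ATPase columns were not exchanged. Whether an ATPase library carries the right label cannot be told from these values. Of the members, 16 events in 8 distinct exons were listed, 15 with a higher PSI than control and 1 with a lower one, where 53.5% of all 5191 events were higher. Without the 6 events of BRM-wt, 9 of 10 were higher. Most of these events are the same TIRAP and IRF3 exons, listed again against the same control libraries. The counts are therefore not of independent events. TIRAP had 11 of the events, IRF3 4 and OASL 1, and neither BRG1-wt table listed any.

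In TIRAP, an exon of 153 bp in the untranslated part of the transcripts (chr11:126159560-126159712 in GRCh37, plus strand) had PSI values of 0.11 and 0.26 in control replicates 1 and 2. It was at 0.47 and 0.79 in BRG1-mut and at 0.74 and 0.88 in BRM-mut, and at 0.6 in replicate 1 of BRM-wt. Both mutant groups lay above both controls in each replicate, by a mean of 0.445 for BRG1-mut (0.36 and 0.53, n = 2) and 0.625 for BRM-mut (0.63 and 0.62, n = 2). A form of the same exon that ends 16 bp later, at chr11:126159560-126159728, was at 0.27 and 0.37 in control, 0.78 and 0.9 in BRM-mut and 0.7 in replicate 1 of BRM-wt. The longer form contains the shorter one, so they are not separate evidence. Other TIRAP exons were each listed in 1 library. None is coding in a protein-coding transcript annotated with exactly that exon, and overlap with coding parts of other transcripts was not checked. The PSI went from 0.05 to 0.64 at chr11:126158338-126158468 in replicate 2 of BRM-wt. It went from 0.15 to 0.63 at chr11:126161168-126161464 in replicate 1 of BRM-mut, and from 0.32 to 0.07 at chr11:126161320-126161464 in replicate 1 of BRG1-mut. The base mean of TIRAP was nearly the same in all tables, at 329 to 357.

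In IRF3, an exon of 173 bp (chr19:50167931-50168103 in GRCh37, minus strand) had PSI values of 0.25 and 0.28 in control, 0.74 and 0.58 in BRG1-mut and 0.75 in replicate 1 of BRM-wt. The change in BRG1-mut had a mean of 0.395 (0.49 and 0.3, n = 2). This exon holds the start codon of annotated IRF3 transcripts, and 165 of its bases are coding. These bases are shown, from chr19:50167931-50168095, with the start codon in capitals, since they hold this start. Whether transcripts without this exact exon have the same or another annotated start was not checked.
IRF3 exon, coding part: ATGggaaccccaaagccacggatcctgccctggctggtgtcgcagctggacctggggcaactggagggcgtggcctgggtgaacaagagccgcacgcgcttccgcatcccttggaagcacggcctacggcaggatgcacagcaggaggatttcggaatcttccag

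A second IRF3 exon, chr19:50166600-50166771, went from 0.9 to 0.98 in replicate 1 of BRM-wt. In OASL, a coding exon of 242 bp (chr12:121465379-121465620 in GRCh37, minus strand) went from 0.81 to 0.95 in replicate 2 of BRM-wt. With 2 libraries against 2, no exact permutation test can pass a threshold of 0.05, and none was made on events that had been selected for their difference. Of the spliced genes, TIRAP stayed within 1.5-fold in expression in all 4 pairs of tables, and OASL was higher with both wild-type ATPases. IRF3 passed from BRG1-mut to BRM-mut (1.53), but not with the GC trend subtracted (1.07).

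**Figure D5:**
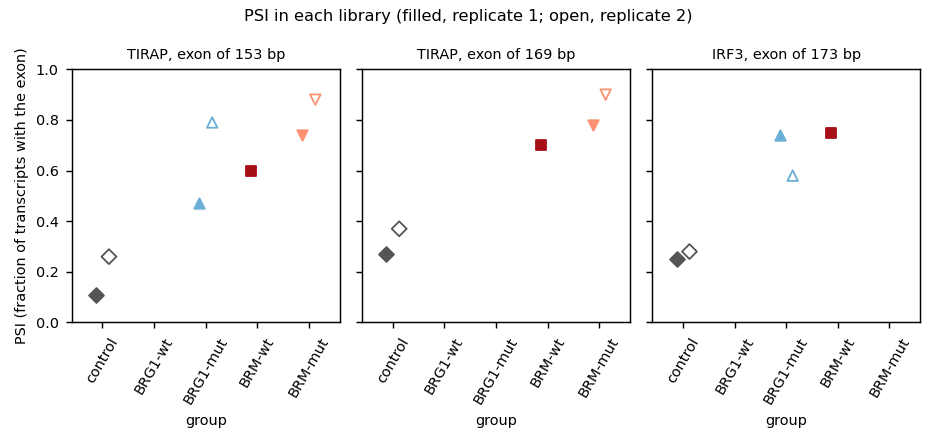
PSI (vertical axis) in each library for the 153 bp and 169 bp forms of the TIRAP exon and the 173 bp IRF3 exon. PSI is the fraction with the exon among the transcript forms compared in an event. Filled symbols are replicate 1 and open symbols replicate 2. An empty place means that the event was not listed for that library. Every listed ATPase library lies above both controls in all 3 panels, from 0.47 upwards.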

How the data were processed

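RNA-seq libraries of C33A cells, 2 per group, were used as the authors deposited them in processed form, with groups taken from the sample titles. The authors mapped reads to GRCh37 with TopHat2 2.0.4, counted them per gene with HTSeq 0.6.1 and ran DESeq2. The base mean of the deposited tables, used as an expression score, is the authors' mean of normalised counts over 4 libraries. The PSI is the fraction that includes an exon among the transcript forms compared in an event, as the authors estimated it with MISO. The deposited tables also hold the authors' own comparisons (log2 fold changes, standard errors, test statistics, p-values, Bayes factors), from which no reported value was taken. A second copy of the BRG1-wt table was left out.

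Tables were rescaled by the median ratio of base means over 16459 genes with a mean of at least 10, which takes the median gene as equal in all tables. Ratios were formed after values under 0.75 were set to 0.75. The computation was tested on simulated tables, where the lower limit relative to control was checked only for genes at high levels. GC content was computed over GENCODE exons for 15978 of these genes in 50 bins. Promoter windows are from RefSeq (GRCh38.p14), and the bases after the start of 51 of the 52 windows lay in a transcript of the gene. Python 3.11.15 with pandas 2.3.3 and numpy 2.4.6 was used.

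The members, the pathway list and the marker list were chosen with earlier results of these data known. Named were members past 1.5-fold in any pair of tables, the 5 with the highest level per kb, those with a splicing event and those below the filter. MAVS, IRF1 and PSMB8, outside this rule, were named to account for every member. A gene of the pathway list is counted but not reported here by name. PECAM1 of the marker list was matched to no identifier. Alternatives were no rescaling, scaling by genes of at least 1000, subtraction of the GC trend, a pseudocount of 10, a filter of 100 or none, a fold of 2, each replicate left out and a change in PSI of at least 0.2. Replicates are separate libraries, and the labels do not say whether they came from separate cultures. The number of reads per library and per event limits the precision to an unknown degree.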

Additional observations from a re-analysis of the deposited data

How the results depend on the processing

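The counts of members higher in the wild-type tables (38 for BRG1 and 38 for BRM) ranged over all alternatives from 29 to 40 and from 29 to 40, with 0 lower in every one. From BRG1-wt to BRM-wt, 3 members instead of 7 were higher at a mean base mean of at least 100, and 2 at a fold of 2. From BRG1-mut to BRM-mut, 7 instead of 11 were higher at a mean base mean of at least 100, and 6 at a fold of 2. With a pseudocount of 10, an alternative chosen after seeing the data for these counts, 5 were higher. The first 2 settings test fewer genes or ask for more by construction. Of the 180 single ratios, 2 moved with the GC trend subtracted (ISG15 to 2.49 and HLA-C to 0.894, both BRG1-mut to BRM-mut), and 16 moved with a pseudocount of 10. These were IFITM1 (76.5 to 15.2 for BRG1 and 85.4 to 8.59 for BRM), BST2 (37.5 to 7.78 and 49.9 to 4.63), MX2 (30.9 to 11.9 and 48.1 to 12.4), XAF1 (29.3 to 16 and 35.0 to 16.3), IFITM3 (16.8 to 7.21 and 22.5 to 5.33), IFI44L (17.7 to 4.4 and 21.8 to 5.37), and IFITM1, IFITM3, MX2 and BST2 between the mutants (to 1.12, 1.31, 1.19 and 1.20). The mean change in PSI with each replicate left out ranged from 0.3 to 0.49 for the IRF3 exon in BRG1-mut, from 0.36 to 0.53 and from 0.62 to 0.63 for the 153 bp TIRAP exon in BRG1-mut and BRM-mut, and from 0.51 to 0.53 for its longer form in BRM-mut. At a change in PSI of at least 0.2, 14 of the 16 events stayed. No paired analysis was possible because the expression values are pooled over libraries and no result comes from a test. Depth per library is unknown, and levels of a few normalised counts, such as those of IFITM1 and BST2 in the mutant tables, rest on few counts.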
